A study of Homo sapiens with 24 samples.

Results

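Solute carriers are membrane proteins that move amino acids, sugars, ions, metals, vitamins, nucleotides and metabolites across the cell surface and the membranes of mitochondria, Golgi, lysosomes and vesicles. The genes were chosen by name alone: a symbol made of SLC, a family number, a letter and a number, antisense genes left out, with a peak of N6-methyladenosine (m6A) in any of 4 deposited peak lists. This gave 172 genes of 9560 genes with a peak, in 48 families, out of 379 such symbols in the RefSeq gene table. The other 207 symbols had no peak in any list, which does not tell an unmethylated transcript from one that was not expressed.

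The lists come from U2OS cells, a human osteosarcoma line, in 4 groups that all received 10 µM BrdU in culture before the irradiation step. METTL3 KO cells lack METTL3, the catalytic subunit of the nuclear m6A methyltransferase, and were given UVC (KO plus UV, 2 immunoprecipitated libraries, IP) or not (KO minus UV, 3 IP libraries). WT cells were likewise given UVC (WT plus UV, 4 IP libraries) or not (WT minus UV, 3 IP libraries). The dose is labelled 50 J, cells were kept for 2 min after irradiation, and RNA was selected on poly(A) before m6A immunoprecipitation and sequencing with a matched input library for each IP library. The number of KO clones is not given in the labels, and a peak list does not measure METTL3 itself. Each group has 1 list for all its libraries, with positions on a transcript and no score or depth, so no spread between replicates could be estimated and no test was made. Intervals in brackets are 95% Wilson intervals and cover counting error alone. Of 10 bone and mesenchymal markers, 5 had a peak in WT minus UV (RUNX2, COL1A1, SPARC, VIM and CD44), against 0 of 6 blood, 0 of 5 epithelial and 1 of 4 neuronal markers (RBFOX3, with 1 peak). RUNX2 had 3 peaks in each list without UV and 0 in each UV list, and the epithelial marker EPCAM had 2 peaks in WT plus UV and 0 in each other list. Of 23 transporters typical of neurons, astrocytes, kidney, liver, gut, thyroid or red cells, 1 had a peak in any list, SLC17A7, a vesicular glutamate transporter of neurons, with 1 peak each in KO plus UV, KO minus UV and WT plus UV.

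m6A is placed on adenosines of messenger RNA by a METTL3-METTL14 complex during transcription, is often dense in long internal exons and around stop codons, and is bound by reader proteins that affect the stability and translation of the message. The antibody also binds the related cap-adjacent mark m6Am, which METTL3 does not make. Several solute carrier messages are known for fast control at the level of RNA: those for amino acid, glucose, zinc, iron and osmolyte transporters respond to nutrient supply and cell stress.

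Of the 172 solute carrier genes, 101 carried a peak in KO plus UV, 124 in KO minus UV, 150 in WT plus UV and 141 in WT minus UV. As percentages these were 58.7% (51.3 to 65.8), 72.1% (65.0 to 78.3), 87.2% (81.4 to 91.4) and 82.0% (75.6 to 87.0) in the same order, beside 57.7%, 72.9%, 83.4% and 74.6% of all genes with a peak in any list. The solute carriers thus lay near the background in both KO lists. Their share in WT minus UV was above it, with an interval that began at 75.6%, against 74.6% of all genes. Genes entered the set by a peak in any list, and 11 of the 141 did so through WT minus UV alone (6.40%, against 4.4% of all genes). Whether the share differs from that of all genes was not tested. The lists held 190, 251, 285 and 281 peaks on these genes in the same order, with median widths of 179, 187, 193 and 189 bases. A solute carrier transcript with a peak held 1.88, 2.02, 1.90 and 1.99 peaks on average, against 1.70, 1.97, 1.92 and 1.94 over all transcripts. Peaks that abut were counted separately. On solute carriers 13, 13, 22 and 14 pairs abut in the same order, against 310, 576, 716 and 642 over all transcripts. A larger number of peaks is therefore not always a larger number of separate sites. The list from 2 IP libraries had the fewest genes and that from 4 the most, and the part of library number in these counts was not tested.

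**Figure D1:**
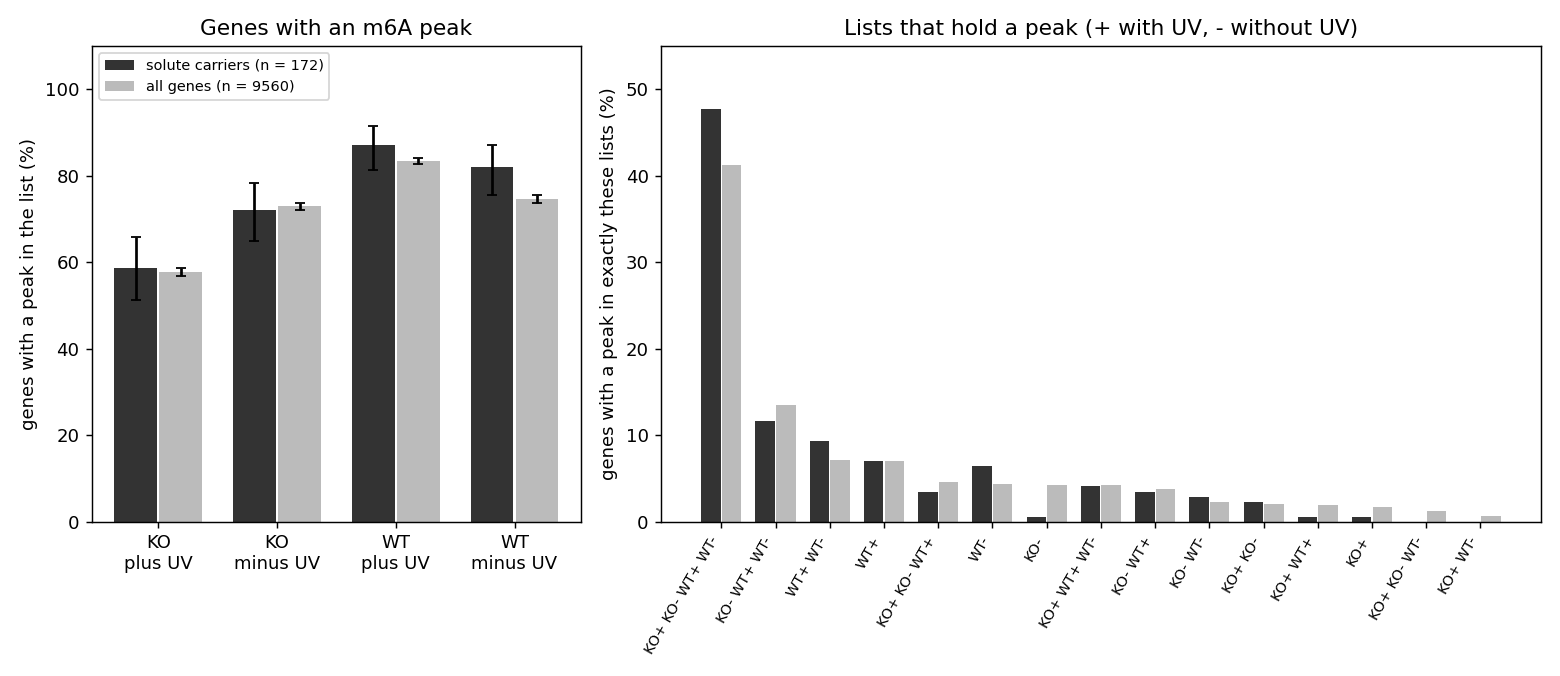
Percent of genes with a peak in each list (left, error bars are 95% Wilson intervals) and percent with a peak in exactly the lists named below each pair of bars (right), for the 172 solute carrier genes (dark) and all 9560 genes (light). A peak in every list was the most frequent pattern in both sets, at 47.7% of solute carriers and 41.2% of all genes.

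A peak in every list was found on 82 solute carriers, or 47.7%, against 41.2% of all genes. They include SLC1A4, SLC1A5, SLC2A1, SLC2A3, SLC2A6, SLC3A2, SLC4A2, SLC6A8, SLC6A9, SLC7A1, SLC7A5, SLC8A2, SLC9A8, SLC9D1 (also TMCO3), SLC12A2, SLC12A7, SLC12A9, SLC15A4, SLC16A1, SLC19A1, SLC20A1, SLC23A2, SLC25A3, SLC25A11, SLC25A13, SLC25A17, SLC25A23, SLC25A28, SLC25A32, SLC25A33, SLC25A38, SLC25A39, SLC25A43, SLC25A44, SLC26A2, SLC26A11, SLC27A1, SLC27A4, SLC29A1, SLC29A2, SLC29A4, SLC30A1, SLC30A5, SLC30A6, SLC30A9, SLC33A1, SLC35A2, SLC35A4, SLC35A5, SLC35B4, SLC35D2, SLC35F2, SLC35F6, SLC35G1, SLC35H1 (also SLC35C2), SLC36A1, SLC37A1, SLC38A2, SLC38A7, SLC38A10, SLC38A12 (also TMEM104), SLC39A4, SLC39A6, SLC39A7, SLC39A9, SLC39A10, SLC39A13, SLC39A14, SLC41A1, SLC43A1, SLC43A2, SLC43A3, SLC44A2, SLC45A3, SLC46A1, SLC48A1, SLC61A1 (also MFSD5), SLC66A2 (also PQLC1), SLC67A2 (also MFSD9) and SLC71A2 (also MFSD14B). The furthest peak end on these transcripts had a median of 2485.5 bases, against 1240 bases on the 25 solute carriers with a peak in 1 list alone. The groups held medians of 8 and 1 peaks over the lists. The furthest of more peaks tends to lie further along, so these distances do not compare like with like.

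The other solute carriers fell into 12 further patterns. A peak in every list but KO plus UV was found on 20 (11.6%, against 13.5% of all genes), among them SLC2A10, SLC2A14, SLC7A6, SLC7A11, SLC8B1, SLC11A2, SLC20A2, SLC25A25, SLC25A36, SLC25A51, SLC30A3, SLC35E1, SLC37A4, SLC38A1, SLC38A6, SLC39A3, SLC49A4, SLC50A1 and SLC71A1 (also MFSD14A). Both WT lists alone held 16 (9.30%, against 7.12%): SLC2A4, SLC6A15, SLC7A2, SLC7A8, SLC9A7, SLC12A4, SLC17A5, SLC18B1, SLC19A2, SLC22A23, SLC25A15, SLC25A40, SLC29A3, SLC35A1, SLC36A4 and SLC45A4. WT plus UV alone held 12 (6.98%, against 6.97%): SLC1A3, SLC7A7, SLC9B2, SLC12A8, SLC16A3, SLC16A14, SLC22A5, SLC24A1, SLC25A21, SLC25A42, SLC27A3 and SLC41A2. WT minus UV alone held 11 (6.40%, against 4.4%): SLC4A11, SLC6A11, SLC9A2, SLC9A5, SLC30A4, SLC30A7, SLC33A2 (also MFSD3), SLC35E4, SLC39A8, SLC39A11 and SLC68A1 (also TMEM180). Every list but KO minus UV held 7 (SLC10A3, SLC25A24, SLC25A46, SLC35G2, SLC37A3, SLC52A2 and SLC66A1), and every list but WT minus UV held 6 (SLC2A8, SLC17A7, SLC25A29, SLC25A30, SLC31A1 and SLC40A1), which are 4.07% and 3.49% against 4.21% and 4.62% of all genes. KO minus UV with WT plus UV held 6 (3.49%, against 3.82%): SLC25A12, SLC25A20, SLC25A45, SLC26A6, SLC35B3 and SLC44A1. Both lists without UV alone held 5 (2.91%, against 2.27%): SLC2A12, SLC5A3, SLC6A6, SLC22A17 and SLC25A22. Both KO lists alone held 4 (2.33%, against 2%): SLC4A3, SLC5A6, SLC25A10 and SLC35C1. SLC41A3 was the 1 solute carrier with a peak in both UV lists alone (0.581%, against 1.97%), SLC35A3 the 1 in KO minus UV alone (against 4.24%) and SLC9A3 the 1 in KO plus UV alone (against 1.75%). The last 2 possible patterns, every list but WT plus UV and KO plus UV with WT minus UV, held 0 solute carriers, against 1.23% and 0.701% of all genes. The KO lists lacked 39 solute carriers that a WT list held (22.7%, against 18.5% of all genes), and the WT lists lacked 6 that a KO list held (3.49%, against 7.98%).

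**Figure D2:**
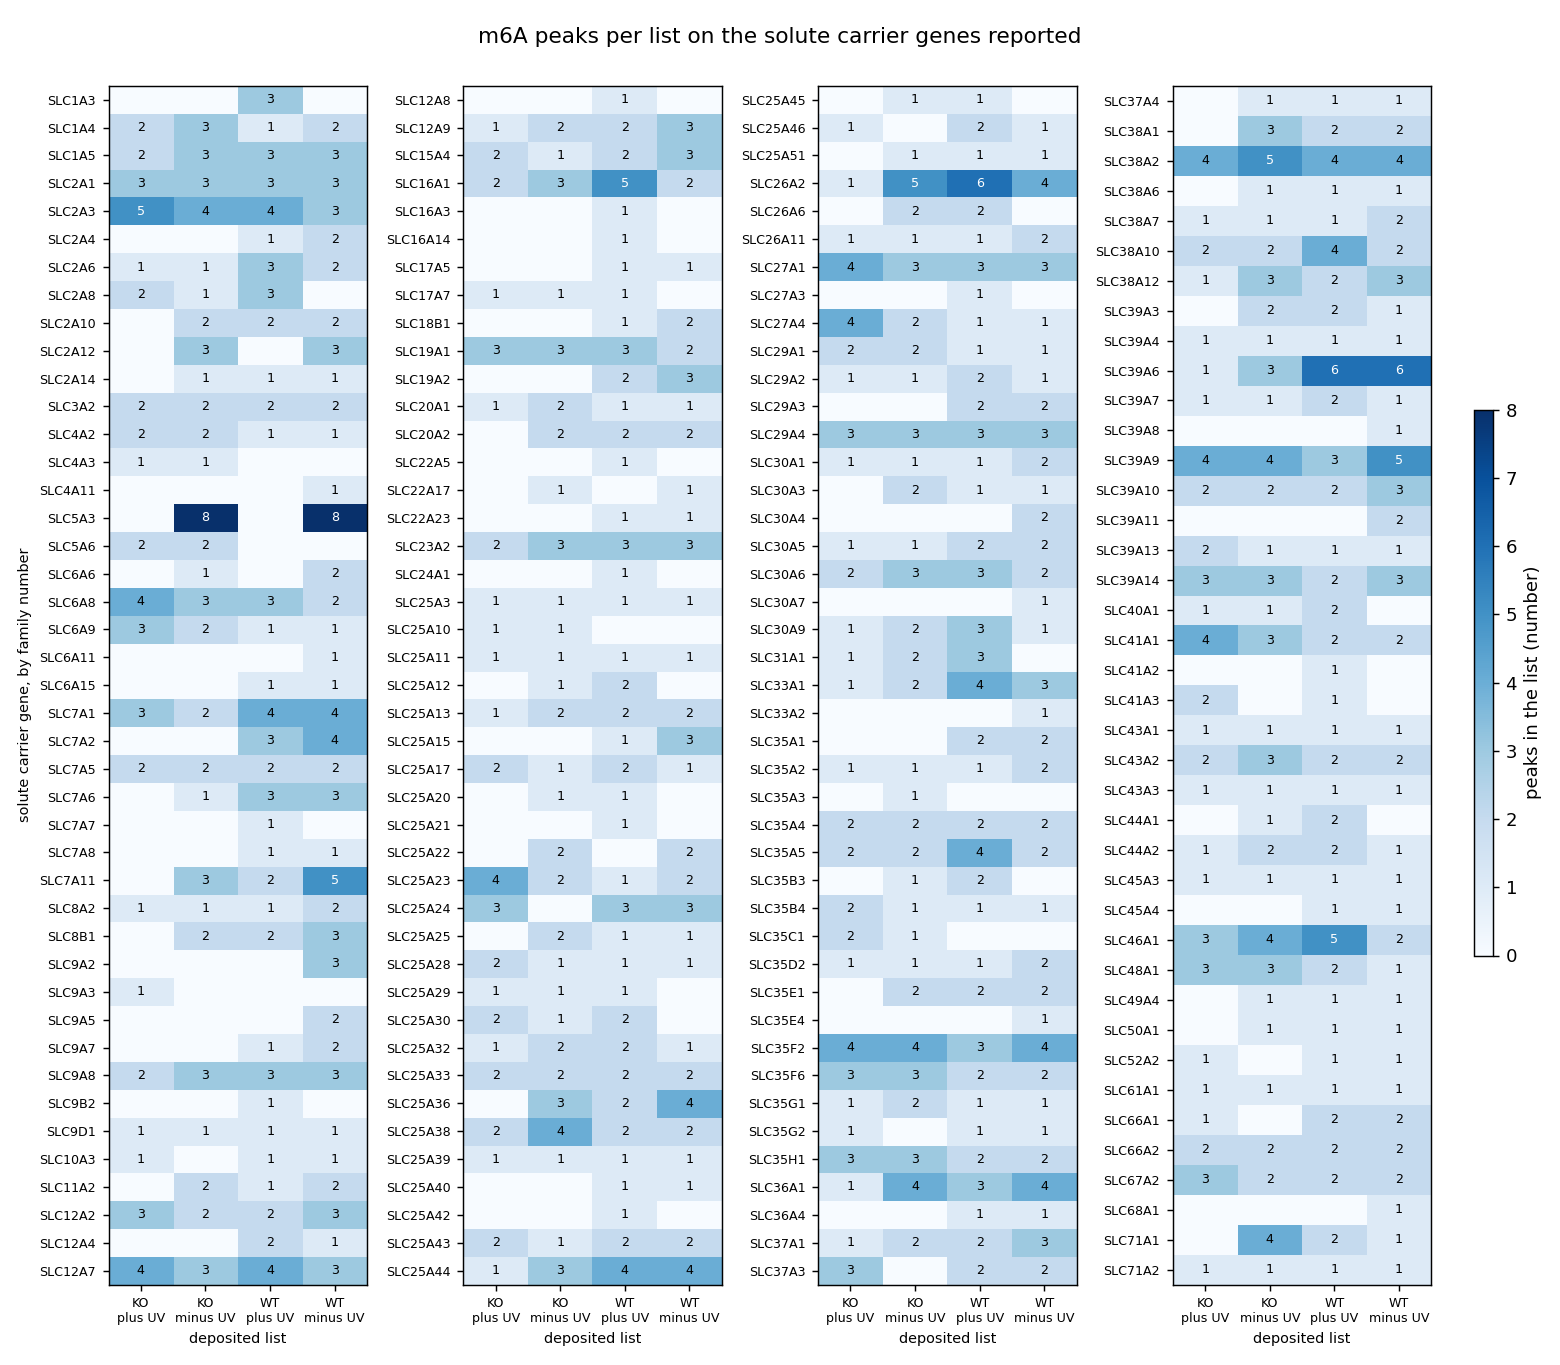
Number of peaks on each solute carrier gene reported (rows, ordered by family number and wrapped over 4 panels) in each deposited list (columns); empty cells are 0 peaks. SLC5A3 shows 8 peaks in each list without UV and 0 in each UV list, while SLC2A1 shows 3 and SLC7A5 shows 2 in all 4 lists.

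Overlapping peaks of the lists on these transcripts merged into 380 regions. Of these, 105 (27.6%) were found in every list, against 25.7% of the 20811 regions on all transcripts, and 107 were found in 1 list alone: 12 in KO plus UV, 22 in KO minus UV, 34 in WT plus UV and 39 in WT minus UV. In the same order these are 3.16%, 5.79%, 8.95% and 10.3%, against 3.57%, 8.68%, 10.8% and 8.53% over all transcripts. Among peaks that overlapped, and so lay close by that choice, the median distance between centres was 8.5 bases between WT plus UV and WT minus UV, 15 bases between KO plus UV and KO minus UV, 13.5 bases between KO minus UV and WT minus UV and 12 bases between KO plus UV and WT plus UV, beside 9.5, 11, 13 and 12.5 bases over all transcripts. On 30 solute carriers (17.4%, against 14.2% of all genes) every region was found in every list. The 13 of them with at least 2 regions were SLC2A1, SLC3A2, SLC7A5, SLC12A7, SLC19A1, SLC25A33, SLC27A1, SLC29A4, SLC35F6, SLC35H1, SLC38A2, SLC43A2 and SLC66A2.

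Peaks at the very start of a transcript are shown with the DNA there, because the antibody also binds the cap-adjacent mark, for which the first transcribed base must be an adenosine. A peak that began in the first 20 bases was found on 22 solute carriers (12.8%, against 16.3% of all genes). Of these, the following 3 have a single RefSeq transcript, so that the RefSeq gene start is that of the listed transcript unless the record has been revised since. Their 30 bases around the gene start (RefSeq, GRCh38.p14, plus strand, 15 bases before it, then the first transcribed base in capitals) are as follows.
SLC31A1, chr9:113221529-113221558: gcgggagggggcgggAaatcctcggcctcg
SLC25A33, chr1:9539450-9539479: cgcgcgccgggctctAgctccccgccgggc
SLC49A4, chr3:122795054-122795083: aggcgcaccaggcgcGgtccggaggccgag
SLC31A1, the copper importer, had a peak from base 1 in KO plus UV, KO minus UV and WT plus UV, ending at 152, 159 and 159. SLC25A33, a pyrimidine nucleotide carrier, had its first peak from base 11 in KO plus UV, 8 in KO minus UV, 13 in WT plus UV and 21 in WT minus UV. SLC49A4 (also DIRC2) had one from base 25 in WT plus UV and 19 in WT minus UV, while its KO minus UV peak lay at 1466 to 1660. The first base was A in 2 of the 3, against 44.4% of the 27305 RefSeq promoter entries. Over all genes with 1 RefSeq transcript it was A in 119 of 218 (54.6%) with a start peak and in 425 of 959 (44.3%) without. The base is a letter of the genome and says nothing of a mark on it.

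Amino acid transporters, grouped by family number (1, 3, 6, 7, 36, 38 and 43, which takes in the nucleobase carrier SLC43A3, also ENBT1), made up 27 of the 172 genes. Of them, 15 had a peak in KO plus UV, 20 in KO minus UV, 25 in WT plus UV and 25 in WT minus UV, and 15 had one in every list. For this class and those below, the shares of all genes were 57.7%, 72.9%, 83.4% and 74.6% in the same order, and 41.2% in every list. Both parts of one transporter had 2 peaks in every list: SLC7A5, which carries large neutral amino acids (chromosome 16, 87830023 to 87869507, GRCh38), and SLC3A2, the heavy chain it binds at the plasma membrane (chromosome 11, 62856109 to 62888860). SLC7A5 had peaks at bases 1910 to 2252 and 3120 to 3533 in KO plus UV, 1912 to 2250 and 3116 to 3540 in KO minus UV, 1913 to 2230 and 3114 to 3553 in WT plus UV, and 1913 to 2240 and 3115 to 3550 in WT minus UV. Its starts therefore lay within 6 bases of each other in all 4 lists at the second peak and within 3 at the first. SLC3A2 had a first peak at 471 to 570 in KO plus UV, 557 to 736 in KO minus UV, 556 to 700 in WT plus UV and 557 to 739 in WT minus UV, and a second that began between 2021 and 2081. SLC38A2, a sodium-coupled transporter induced by amino acid shortage (chromosome 12, 46358188 to 46372773), held 17 peaks in all, with 4 in KO plus UV, 5 in KO minus UV, 4 in WT plus UV and 4 in WT minus UV. SLC1A5, a glutamine transporter, had 2 peaks in KO plus UV and 3 in each of KO minus UV, WT plus UV and WT minus UV. SLC6A8, the creatine transporter (chromosome X, 153687926 to 153696593), had 4 peaks in KO plus UV, 3 in KO minus UV, 3 in WT plus UV and 2 in WT minus UV, and in every list the first began at base 1.

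Other amino acid transporters had a peak in some lists alone. SLC7A11, the cystine importer that feeds glutathione synthesis (chromosome 4, 138164097 to 138242349), had 0 peaks in KO plus UV, 3 in KO minus UV, 2 in WT plus UV and 5 in WT minus UV. Its peak near base 1675 was seen at 1675 to 1839 in KO minus UV, 1672 to 1840 in WT plus UV and 1673 to 1839 in WT minus UV, whereas the one at 311 to 557 of WT minus UV had a partner in KO minus UV, at 261 to 545, and none in either UV list. SLC7A2, a cationic amino acid transporter (chromosome 8, 17494069 to 17570566), had 0 peaks in KO plus UV, 0 in KO minus UV, 3 in WT plus UV and 4 in WT minus UV, the largest total length of the 16 genes found in both WT lists alone. SLC7A1, another transporter of arginine and lysine, had 3, 2, 4 and 4 peaks in KO plus UV, KO minus UV, WT plus UV and WT minus UV. SLC1A3, a glutamate transporter, had 3 peaks over 535 bases in WT plus UV and 0 in each other list, the largest total of the 12 genes found there alone. SLC6A6, the taurine transporter, had 0 peaks in KO plus UV, 1 in KO minus UV at bases 89 to 287, 0 in WT plus UV and 2 in WT minus UV, at 98 to 293 and 2691 to 2860. Of 25 amino acid transporters with a peak in KO minus UV or WT minus UV, 0 had one in KO minus UV alone, against 16.4% of all genes, and 5 in WT minus UV alone, against 18.4%: SLC6A11, a GABA transporter, SLC6A15, SLC7A2, SLC7A8 and SLC36A4.

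Sugar and myo-inositol transporters (families 2, 5, 45 and 50) counted 13 genes, with a peak on 6 in KO plus UV, 11 in KO minus UV, 10 in WT plus UV and 11 in WT minus UV. SLC5A3, which imports myo-inositol, an osmolyte (chromosome 21, 34073578 to 34106260), had 0 peaks in KO plus UV, 8 over 1538 bases in KO minus UV, 0 in WT plus UV and 8 over 1683 bases in WT minus UV. Its peaks in KO minus UV lay at bases 365 to 618, 619 to 871, 990 to 1188, 1341 to 1464, 1660 to 1869, 1975 to 2181, 2425 to 2605 and 9961 to 10070. In WT minus UV they lay at 364 to 709, 710 to 842, 981 to 1170, 1341 to 1484, 1663 to 1868, 1976 to 2300, 2417 to 2631 and 3011 to 3134. All but the last peak of each list thus overlapped a peak of the other. SLC5A3 held the most peaks of the 217 genes found in both lists without UV and in no UV list. Among the 192 genes that held 5 or more peaks in each list without UV, 7 (3.65%) had 0 in both UV lists, SLC5A3 and the non-carriers AKAP9, INO80D, KIF14, PPARA, USF3 and ZZEF1. The SLC5A3 gene lies within MRPS6 over its whole 32683 bases, a mitochondrial ribosomal protein gene with 0 peaks in every list. SLC2A12, a glucose transporter of the same pattern (chromosome 6, 133987581 to 134052624), had 3 peaks in KO minus UV and 3 in WT minus UV and 0 in each UV list. Its peaks lay at 377 to 610, 1291 to 1390 and 2031 to 2183 in KO minus UV and at 399 to 636, 1141 to 1434 and 1941 to 2172 in WT minus UV, so that all 3 overlapped. SLC25A22 and SLC22A17 share the pattern with 2 and 1 peaks in each list without UV, but only 1 of the SLC25A22 peaks of KO minus UV, 1801 to 1990, overlapped one of WT minus UV, 1871 to 2026.

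SLC2A1, the main glucose transporter of dividing cells (chromosome 1, 42925353 to 42958868), had 3 peaks in every list, the second starting at base 1951 in all 4. SLC2A3, a high-affinity glucose transporter (chromosome 12, 7919230 to 7936187), had 5 peaks in KO plus UV, 4 in KO minus UV, 4 in WT plus UV and 3 in WT minus UV, with the peak at 2341 to 2499 of WT plus UV present in both KO lists and absent from WT minus UV. SLC2A14 is a close copy of SLC2A3 on the same chromosome (7812514 to 7891196), so its single peak in KO minus UV, WT plus UV and WT minus UV is uncertain where reads fit both, since the labels do not say how such reads were treated. SLC2A8 had 2 peaks in KO plus UV, 1 in KO minus UV, 3 in WT plus UV and 0 in WT minus UV. SLC2A4, the insulin-responsive transporter, had 0 in KO plus UV, 0 in KO minus UV, 1 in WT plus UV and 2 in WT minus UV. SLC5A6 is grouped by its family number but carries biotin and pantothenate, and had 2 peaks in KO plus UV, 2 in KO minus UV, against 0 in each WT list.

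**Figure D3:**
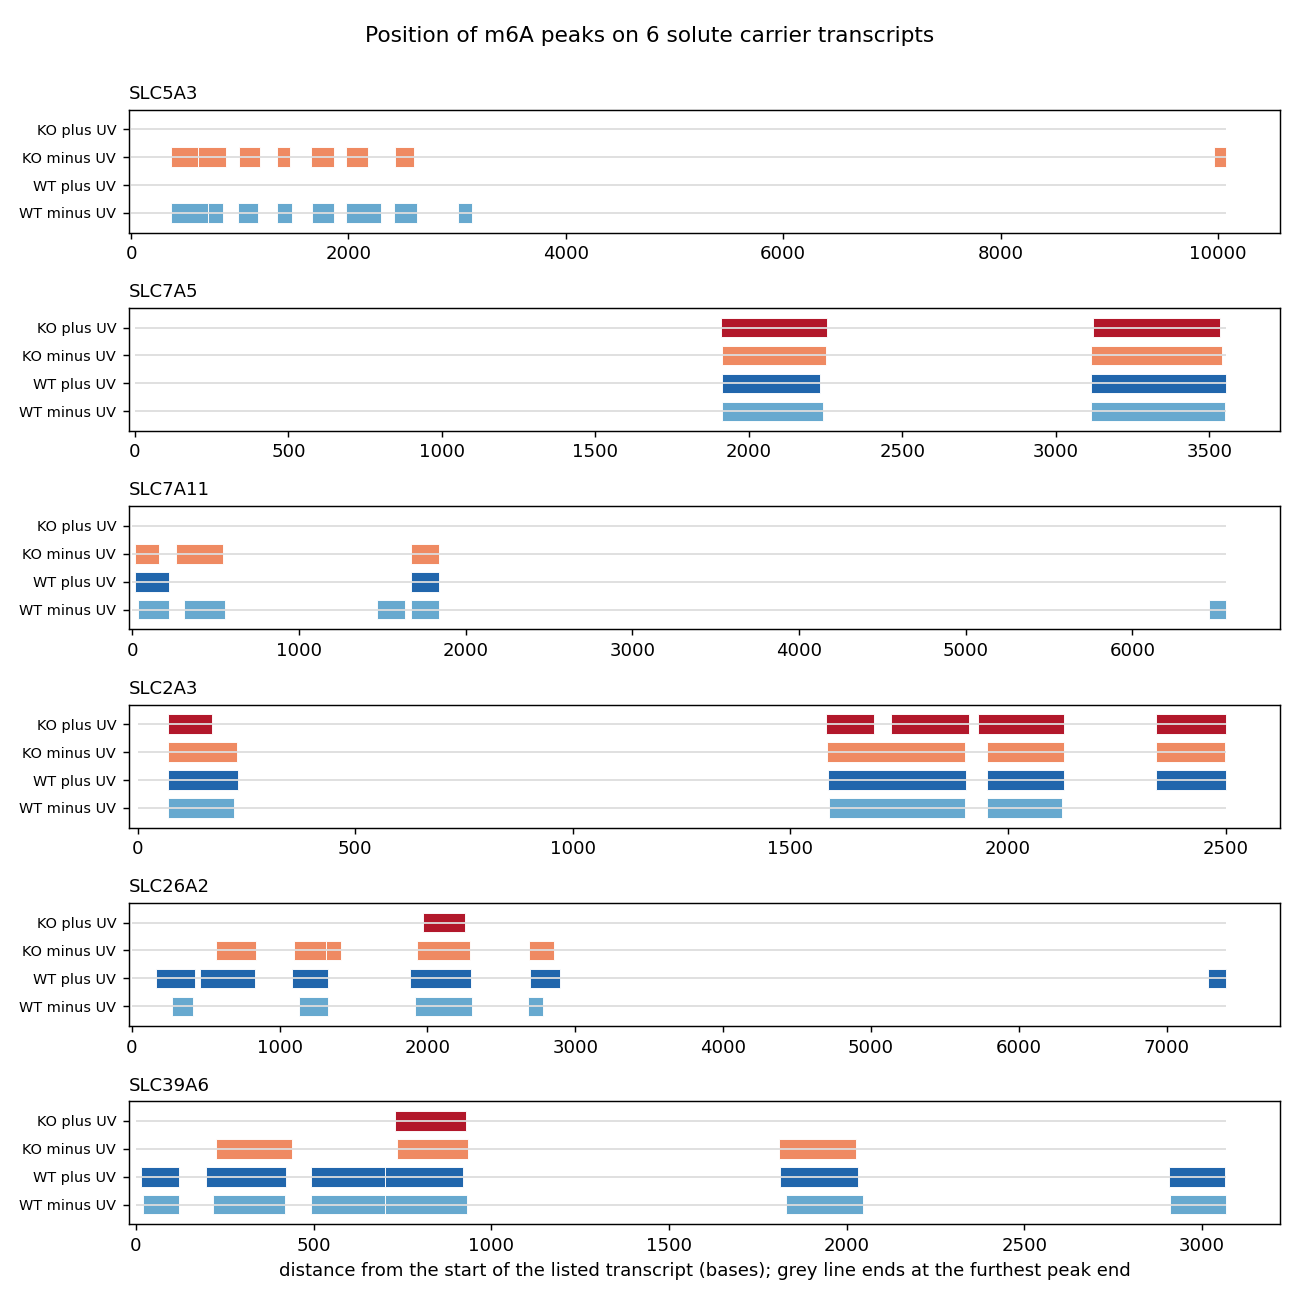
Peaks of the 4 lists (rows) on 6 transcripts, by distance in bases from the start of the listed transcript. SLC5A3 has peaks in the lists without UV only, SLC7A5 has the same 2 peaks in every list, and SLC26A2 and SLC39A6 have 1 peak in KO plus UV and 6 in WT plus UV.

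Zinc transporters (families 30 and 39) counted 17 genes, of which 11 had a peak in KO plus UV, 13 in KO minus UV, 13 in WT plus UV and 17 in WT minus UV. Over all genes, 74.6% had a peak in WT minus UV and 4.4% had one in WT minus UV alone. The 4 zinc transporters missing from each other list were SLC30A4 and SLC30A7, which load zinc into vesicles, SLC39A8, an importer of zinc and manganese, and SLC39A11. Each carried 1 or 2 peaks in WT minus UV, with a total of 168 to 368 bases. SLC39A6, a plasma membrane zinc importer (chromosome 18, 36108531 to 36129340), had 1 peak in KO plus UV, 3 in KO minus UV, 6 in WT plus UV and 6 in WT minus UV. Its 1 peak in KO plus UV, at 728 to 928, overlapped a peak of each other list, and the peaks at 14 to 120, 493 to 699 and 2907 to 3065 of WT plus UV had a partner in WT minus UV and none in KO cells. SLC39A9 held 4, 4, 3 and 5 peaks in KO plus UV, KO minus UV, WT plus UV and WT minus UV, and SLC39A14, which also imports iron, held 3, 3, 2 and 3. SLC30A1, the zinc exporter of the plasma membrane, had 1, 1, 1 and 2 peaks in the same order.

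Other metal transporters numbered 3. SLC31A1 (chromosome 9, 113221544 to 113264492), had 1 peak in KO plus UV, 2 in KO minus UV, 3 in WT plus UV and 0 in WT minus UV. SLC40A1, the cellular iron exporter, had 1, 1, 2 and 0 peaks in the same order, at 1193 to 1467 in KO plus UV, 1239 to 1468 in KO minus UV, and 1240 to 1426 and 1427 to 1544 in WT plus UV. SLC11A2, an iron importer, had 0 peaks in KO plus UV, 2 in KO minus UV, 1 in WT plus UV and 2 in WT minus UV. The copper importer and the iron exporter were therefore missing from WT minus UV alone, and the iron importer from KO plus UV alone.

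Mitochondrial carriers, grouped by family number (25), were the largest family with 28 of its 48 symbols. Most, but not all, of this family pass metabolites through the inner mitochondrial membrane. A peak was found on 17 in KO plus UV, 22 in KO minus UV, 26 in WT plus UV and 20 in WT minus UV. In WT cells, of 27 with a peak in either list, 7 were found in the plus UV list alone, against 18.9% of all genes. The minus UV list alone held 1, against 9.36%. The 7 were SLC25A12, an aspartate and glutamate carrier, SLC25A20, the carnitine and acylcarnitine carrier, SLC25A21, SLC25A29, SLC25A30, SLC25A42, a coenzyme A carrier, and SLC25A45, and the 1 was SLC25A22, a glutamate carrier. In KO cells, of 24 with a peak in either list, 2 were found in the plus UV list alone, SLC25A24 and SLC25A46, against 10.6% of all genes. The minus UV list alone held 7, against 29.2%. SLC25A24, an ATP and phosphate carrier (chromosome 1, 108134043 to 108200343), had 3 peaks in KO plus UV, 0 in KO minus UV, 3 in WT plus UV and 3 in WT minus UV. SLC25A3, the phosphate carrier, SLC25A11, the oxoglutarate carrier, and SLC25A39, which brings glutathione into mitochondria, had 1 peak in each of the 4 lists. SLC25A44, a carrier of branched-chain amino acids, had the largest total peak length of the family, with 1 peak in KO plus UV, 3 in KO minus UV, 4 in WT plus UV and 4 in WT minus UV. SLC25A33 had 2 peaks in every list.

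Nucleotide sugar transporters and relatives (family 35), which feed glycosylation in the Golgi, counted 16 genes, with a peak on 11 in KO plus UV and on 13 in each of KO minus UV, WT plus UV and WT minus UV. They held 22 peaks in KO plus UV and 24 in each of the other lists. SLC35F6 carried the largest total length, with 3, 3, 2 and 2 peaks in KO plus UV, KO minus UV, WT plus UV and WT minus UV. SLC35A4 had 2 peaks in every list, the first ending at base 361 in 3 of the 4 lists and at 369 in WT minus UV. SLC35A1, the transporter of CMP-sialic acid, had 2 peaks in each WT list and 0 in each KO list. SLC35C1, the transporter of GDP-fucose, had 2 in KO plus UV, 1 in KO minus UV, against 0 in each WT list.

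Transporters of inorganic ions (families 4, 8, 9, 12, 20, 24, 26, 34 and 41) counted 28 genes, with a peak on 15 in KO plus UV, 17 in KO minus UV, 23 in WT plus UV and 20 in WT minus UV. SLC26A2, the sulfate transporter needed for cartilage proteoglycans (chromosome 5, 149960758 to 149987400), had the largest total peak length of all solute carriers, 280 bases in KO plus UV, 1114 in KO minus UV, 1620 in WT plus UV and 821 in WT minus UV. It had 1, 5, 6 and 4 peaks in the same order, and the region after base 1881 was common to all, with peaks at 1971 to 2250 in KO plus UV, 1931 to 2287 in KO minus UV, 1881 to 2296 in WT plus UV and 1917 to 2300 in WT minus UV. The cation and chloride cotransporters SLC12A2 and SLC12A7 had a peak in every list, with 3, 2, 2 and 3 peaks and 4, 3, 4 and 3 peaks in KO plus UV, KO minus UV, WT plus UV and WT minus UV. The SLC12A7 transcript is numbered as one of several copies in the lists. SLC9A8, a sodium and proton exchanger of the Golgi, had 2, 3, 3 and 3 peaks in that order, and SLC9A2 had 0, 0, 0 and 3. SLC41A1, which moves magnesium, had 4, 3, 2 and 2 peaks in the same order.

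Monocarboxylate transporters (family 16) counted 4 genes. SLC16A1, which carries lactate and pyruvate (chromosome 1, 112911847 to 112956196), had 2 peaks in KO plus UV, 3 in KO minus UV, 5 in WT plus UV and 2 in WT minus UV, and SLC16A3, the lactate exporter of glycolytic cells, had 1 peak in WT plus UV alone. Of 5 vitamin transporters, the folate transporters SLC19A1 and SLC46A1 and the ascorbate transporter SLC23A2 had a peak in every list. SLC46A1 (chromosome 17, 28394642 to 28406592) had 3 peaks in KO plus UV, 4 in KO minus UV, 5 in WT plus UV and 2 in WT minus UV. SLC19A2, a thiamine transporter, had 2 in WT plus UV, 3 in WT minus UV and 0 in each KO list. Fatty acid transport proteins SLC27A1 and SLC27A4 each had 4 peaks in KO plus UV, and had 3 and 2 in KO minus UV, 3 and 1 in WT plus UV and 3 and 1 in WT minus UV. In KO plus UV, the peaks at 1855 to 1967 and 1968 to 2198 of SLC27A1 abut, as do those from 2230 to 2739 of SLC27A4. Of the nucleoside transporters, SLC29A1, SLC29A2 and SLC29A4 had a peak in every list, and SLC29A3, of lysosomes, had 2 in each WT list and 0 in each KO list. SLC33A1, which brings acetyl-CoA into the endoplasmic reticulum, had 1, 2, 4 and 3 peaks in KO plus UV, KO minus UV, WT plus UV and WT minus UV.

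**Figure D4:**
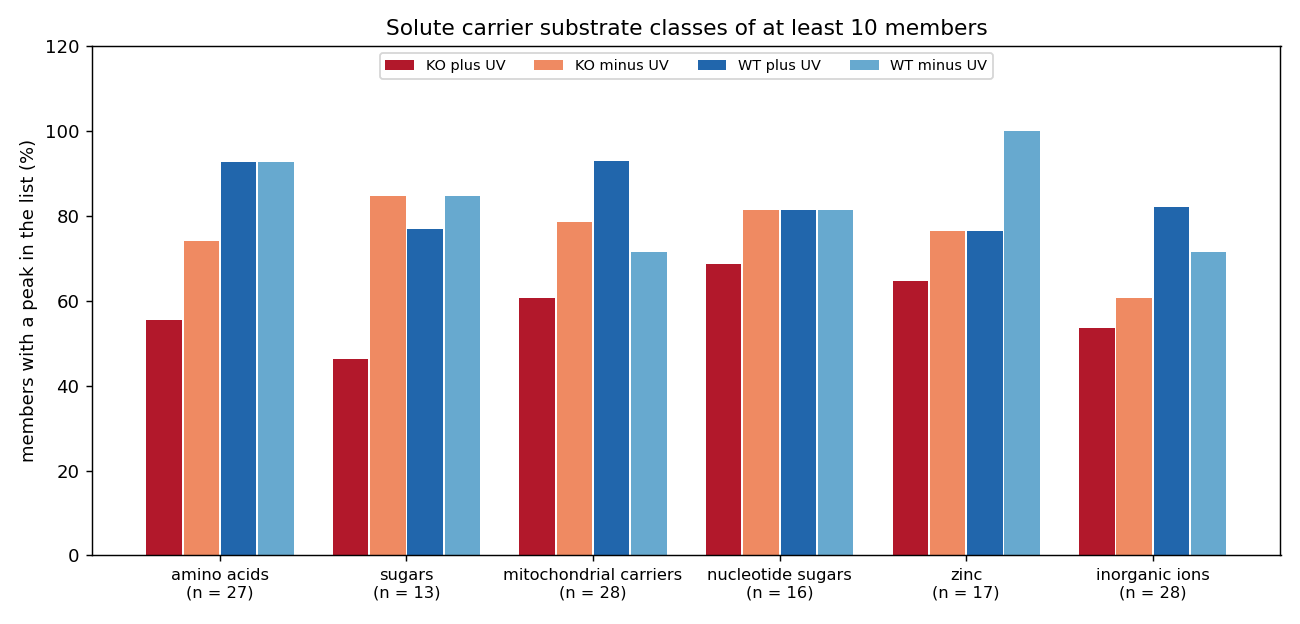
Percent of the members of 6 substrate classes with a peak in each list; n is the size of the class. WT plus UV held 13 and WT minus UV held 17 of 17 zinc transporters. WT plus UV held 26 and WT minus UV held 20 of 28 mitochondrial carriers. Over all genes the shares were 83.4% in WT plus UV, against 74.6% in WT minus UV. The classes were not tested against each other.

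The comparison of WT plus UV with WT minus UV asks which messages carry m6A peaks soon after UV damage. Of 166 solute carriers with a peak in either list, 25 (15.1%, 10.4 to 21.3) had one in WT plus UV alone, against 18.9% of all genes, and 16 (9.64%, 6.02 to 15.1) had one in WT minus UV alone, against 9.36%. Both shares were near the background. Of the 25, mitochondrial carriers gave 7 (of 27 with a peak in either list) and inorganic ion transporters 6 (of 26). Of the 16, zinc transporters gave 4 (of 17) and inorganic ion transporters 3 (of 26). Among the 125 genes with a peak in both lists, 24 had more peaks in WT plus UV, 28 had fewer and 73 had the same number. These are 19.2% with more and 22.4% with fewer, against 22.5% and 18.2% over all genes. The largest differences were SLC16A1 and SLC46A1, with 5 peaks in WT plus UV against 2 in WT minus UV, and SLC1A3, SLC2A8 and SLC31A1, with 3 against 0. Some of these WT plus UV peaks abut. They lay at 1892 to 2106, 2107 to 2321 and 2322 to 2479 on SLC16A1. On SLC1A3 they were 1924 to 2106 and 2107 to 2281, and on SLC2A8 1441 to 1661 and 1662 to 1904. In the other direction the largest differences were SLC5A3, with 0 against 8, SLC2A12 and SLC9A2, with 0 against 3, and SLC7A11, with 2 against 5. Peak by peak, 74 of 285 in WT plus UV (26%, 21.2 to 31.4) lacked a partner in the unirradiated list and 68 of 281 in WT minus UV (24.2%, 19.6 to 29.5) lacked one in the irradiated list, beside 30% and 22.4% over all transcripts. Taking the 9471 widest peaks of each list turned the order round, with 23 solute carriers in WT plus UV alone and 29 in WT minus UV alone. No share over all genes stands beside these counts, so they cannot be read as particular to solute carriers.

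In KO cells, 9 of 133 solute carriers (6.77%, 3.60 to 12.4) had a peak in KO plus UV alone, against 10.6% of all genes, and 32 (24.1%, 17.6 to 32) had one in KO minus UV alone, against 29.2%. The 9 were SLC9A3, SLC10A3, SLC25A24, SLC25A46, SLC35G2, SLC37A3, SLC41A3, SLC52A2, a riboflavin transporter, and SLC66A1, a lysosomal exporter of basic amino acids. SLC25A24 and SLC37A3 had 3 peaks in KO plus UV against 0 in KO minus UV, and SLC25A23 and SLC27A4 had 4 against 2. In the other direction SLC5A3 had 0 peaks in KO plus UV against 8 in KO minus UV, SLC71A1 had 0 against 4, SLC26A2 had 1 against 5, SLC36A1, a proton-coupled amino acid transporter, had 1 against 4, and SLC25A36 had 0 against 3. A peak in either KO list was found on 20 amino acid and 11 sugar transporters. In KO plus UV alone there were 0 of each class, against 10.6% of all genes. In KO minus UV alone there were 5 of the 20 and 5 of the 11, against 29.2%. Where KO minus UV held 2 or more peaks, 17 of 75 solute carriers (22.7%, 14.7 to 33.3) had 0 in KO plus UV, against 25.9% of all genes. Peak by peak, 20% in KO plus UV (14.9 to 26.3) lacked a partner in the unirradiated list and 41.8% in KO minus UV (35.9 to 48.0) lacked one in the irradiated list, beside 22.6% and 47% over all transcripts. KO plus UV rests on 2 IP libraries and KO minus UV on 3. With the 9471 widest peaks of each list, 17 solute carriers had a peak in KO plus UV alone and 23 in KO minus UV alone. Under it 31.6% of KO plus UV peaks lacked a partner, and no share over all genes was at hand for this setting.

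**Figure D5:**
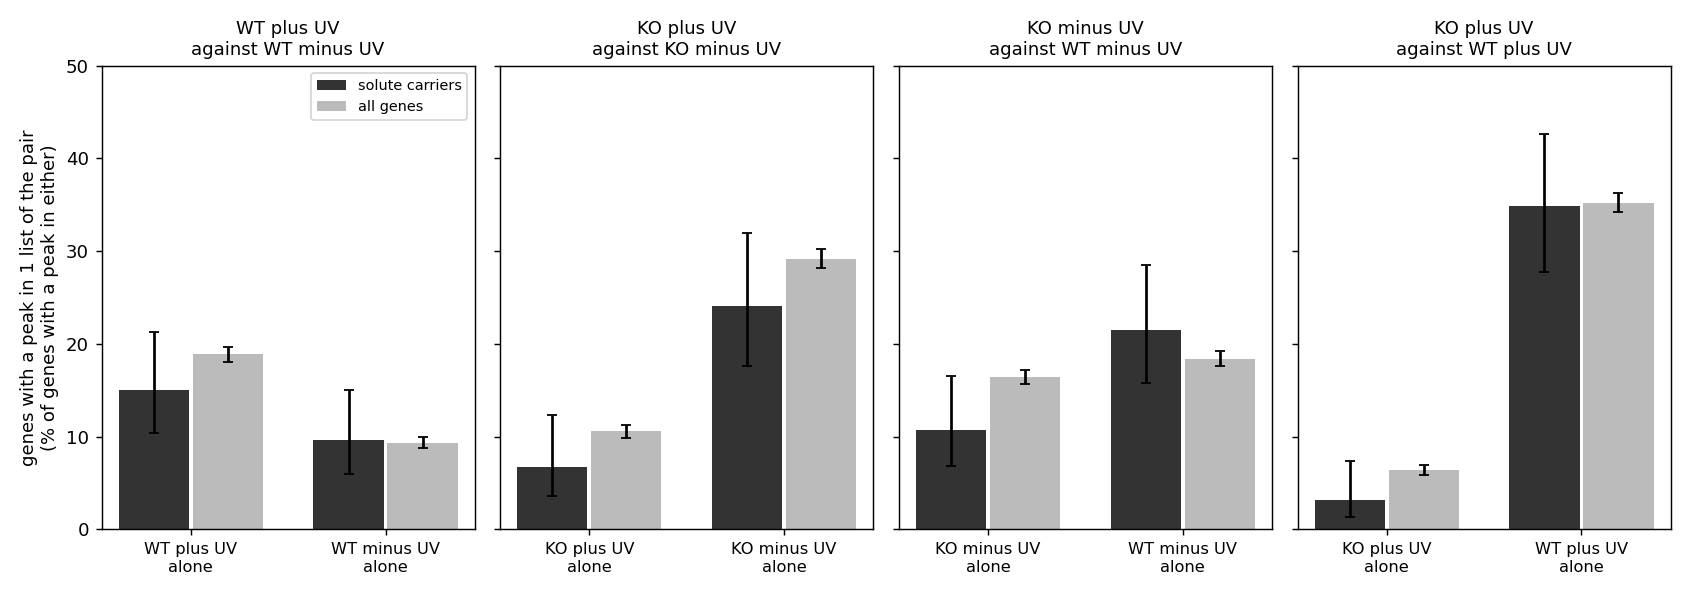
Percent of genes with a peak in 1 list of a pair alone, among those with a peak in either, for solute carriers (dark) and all genes (light); error bars are 95% Wilson intervals. Each of the 8 solute carrier intervals includes the value of all genes; the nearest to its end is KO minus UV alone in the pair without UV, 10.8% of solute carriers with an interval that ends at 16.6%, against 16.4% of all genes.

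Between the genotypes without UV, where each list came from 3 IP libraries, 17 of 158 solute carriers (10.8%, 6.83 to 16.6) had a peak in KO minus UV alone, against 16.4% of all genes, and 34 (21.5%, 15.8 to 28.6) had one in WT minus UV alone, against 18.4%. Over all genes the numbers were 1403 in KO minus UV alone and 1571 in WT minus UV alone, and both solute carrier intervals include the share of all genes. The 17 were SLC2A8, SLC4A3, SLC5A6, SLC17A7, SLC25A10, SLC25A12, SLC25A20, SLC25A29, SLC25A30, SLC25A45, SLC26A6, SLC31A1, SLC35A3, SLC35B3, SLC35C1, SLC40A1 and SLC44A1. Most of these had 1 peak there, and SLC5A6, SLC26A6 and SLC31A1 had 2 against 0 in WT minus UV. The 34 included SLC7A2 with 0 peaks in KO minus UV against 4 in WT minus UV, and SLC9A2, SLC19A2, SLC25A15, an ornithine carrier, and SLC25A24 with 0 against 3. SLC39A6 had 3 against 6. In the other direction SLC71A1 had 4 peaks in KO minus UV against 1 in WT minus UV and SLC48A1, a haem transporter, had 3 against 1. Peak by peak, 27.1% in KO minus UV (22 to 32.9) lacked a partner in the WT list and 36.3% in WT minus UV (30.9 to 42.1) lacked one in the KO list, beside 31.1% and 32.1% over all transcripts. Both shares were 20.8% on the solute carriers found in both lists, near the 19.8% and 18.3% over all transcripts found in both.

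After UV, 5 of 155 solute carriers (3.23%, 1.39 to 7.33) had a peak in KO plus UV alone, against 6.38% of all genes, and 54 (34.8%, 27.8 to 42.6) had one in WT plus UV alone, against 35.2%. The 5 were SLC4A3, SLC5A6, SLC9A3, SLC25A10 and SLC35C1. The 54 included 10 amino acid transporters (of 25 with a peak in either list), among them SLC1A3, SLC7A2, SLC7A6, SLC7A11 and SLC38A1. They also included 10 mitochondrial carriers (of 27) and 10 ion transporters (of 25), beside the 35.2% of all genes. SLC26A2 and SLC39A6 had 1 peak in KO plus UV against 6 in WT plus UV, and SLC25A44 and SLC33A1 had 1 against 4, while SLC25A23 and SLC27A4 had 4 against 1. The WT plus UV peak of SLC27A4, 2230 to 2684, spans most of the stretch from 2230 to 2739 that KO plus UV held as abutting peaks. Peak by peak, 19.5% in KO plus UV (14.5 to 25.7) lacked a partner in the WT list and 47% in WT plus UV (41.3 to 52.8) lacked one in the KO list, beside 19.3% and 51.0% over all transcripts. KO plus UV rests on 2 IP libraries and WT plus UV on 4. With the 9471 widest peaks of each list, 19 solute carriers had a peak in KO plus UV alone and 35 in WT plus UV alone. Under it 38.9% of KO plus UV peaks and 39.6% of WT plus UV peaks lacked a partner, again without a share over all genes. Each list serves in 2 of the 4 comparisons, so these are not independent of each other.

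Other transporter gene sets, chosen by symbol, were counted the same way. The ABC set took in ABCE1, ABCF1, ABCF2 and ABCF3, which are not membrane transporters and had a peak in every list. Of its 20 genes, 12 had a peak in KO plus UV, 14 in KO minus UV, 17 in WT plus UV and 15 in WT minus UV. Of 19 P-type ATPases, the ion and lipid pumps, these numbers were 10, 15, 14 and 17, and of 20 solute carriers under other symbols (SLCO, MFSD and a fixed list) 12, 14, 17 and 16. Without UV, 2 of 17 ABC genes, 2 of 19 P-type ATPases and 2 of 18 carriers under other symbols had a peak in KO minus UV alone, against 16.4% of all genes. In WT minus UV alone these numbers were 3, 4 and 4, against 18.4% of all genes. ABCC1, a drug and glutathione exporter, had 5, 5, 6 and 3 peaks in KO plus UV, KO minus UV, WT plus UV and WT minus UV, and ATP2B1, a calcium pump, had 0, 5, 4 and 4. In every list the share of the 172 solute carriers with a peak lay within the 95% interval of each of these sets of 19 or 20 genes.

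Of 39 genes chosen for their known control of transporters, 30 had a peak in any list. Of these 30, 23 had one in KO plus UV, 27 in KO minus UV, 28 in WT plus UV and 28 in WT minus UV. Over all genes with a peak the shares were 57.7%, 72.9%, 83.4% and 74.6% in the same order. NFAT5, the transcription factor of the osmotic response that drives SLC5A3 and SLC6A6, had 0 peaks in KO plus UV, 0 in KO minus UV, 1 in WT plus UV and 7 in WT minus UV. SLC5A3 had 8 peaks in KO minus UV, where NFAT5 had 0. Peaks on a message do not measure its level or the activity of its protein. A link between the peaks of these genes was not tested. ATF4, which drives amino acid transporter genes, had 1 peak in each of the 4 lists, HIF1A, which drives SLC2A1, had 3, 3, 2 and 2, and MTF1, which drives SLC30A1, had 4, 4, 5 and 4 in KO plus UV, KO minus UV, WT plus UV and WT minus UV. WNK1, a kinase that controls SLC12A2 and SLC12A7, had 2, 3, 4 and 6, and NEDD4L, a ubiquitin ligase of several transporters, had 0, 0, 1 and 4. In the WT pair, 2 of the 30 genes had a peak in WT plus UV alone (EPAS1 and ARRDC4) and 2 in WT minus UV alone (WNK2 and TSC2), against 18.9% and 9.36% of all genes.

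Some positions are less certain than others. Of the 172 genes, 38 overlap another protein-coding gene in the genome, and for 19 of them that neighbour has a peak of its own, such as SLC7A6OS with SLC7A6 over 3786 bases and FRMD8 with SLC25A45 over 8510 bases. The antisense gene SLC25A25-AS1 had 3 peaks in KO minus UV and 3 in WT minus UV and 0 in each UV list, while SLC25A25 had 0 in KO plus UV, 2 in KO minus UV, 1 in WT plus UV and 1 in WT minus UV. SLC6A10P, a pseudogene copy of SLC6A8, had 3 peaks in WT minus UV alone. The labels do not say whether strand or unique mapping was used, so reads of such pairs may not be told apart.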

How the data were processed

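RNA of U2OS cells was immunoprecipitated for m6A and sequenced as single-end reads of 50 bases. Of 24 samples in 8 groups, 12 are IP libraries and 12 inputs. Per the submitters' processing notes, TopHat2 2.0.14 and hg38 were used. Which peak caller and threshold the authors chose, and how replicates were pooled, is not stated in the labels. The deposited files are 4 peak lists, and their other values are start and end positions on RefSeq transcripts, taken as counted from 1 with both ends included. The narrowest peak spans 100 bases.

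Transcripts were matched to symbols and gene coordinates through the RefSeq table (GRCh38.p14): 9563 of 9674 (98.9%) matched, after removal of a copy number from 114, and 111 were left out of gene counts. Peaks were shared when they overlapped by at least 1 base on a transcript. Promoter entries matched 145 of the 172 members. Members are named by their pattern, except for a few that enter the counts but are not reported here, and values are given for those with the largest total peak length or difference, by class. Members, classes and gene lists were chosen with earlier results of these data known. No test was made, since a group has 1 list. Counts stand beside those over all genes. Scripts were checked on simulated lists. Python 3.11.15, SciPy 1.17.1 and matplotlib 3.10.9 were used.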

Additional observations from a re-analysis of the deposited data

Results flagged for a closer look

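For 6 solute carriers the UV lists went opposite ways in the genotypes: a peak in KO minus UV and none in KO plus UV, but a peak in WT plus UV and none in WT minus UV. With 1 list per group this difference was not tested. As KO plus UV minus KO minus UV and then WT plus UV minus WT minus UV, the number of peaks differed by -1 and 2 for SLC25A12, an aspartate and glutamate carrier, by -1 and 1 for SLC25A20, the carnitine and acylcarnitine carrier, by -1 and 1 for SLC25A45, by -2 and 2 for SLC26A6, an anion exchanger, by -1 and 2 for SLC35B3, which carries the sulfate donor of the Golgi, and by -1 and 2 for SLC44A1, a choline transporter. The 6 are 3.49% of the solute carriers, against 365 genes or 3.82% of all genes, and 0 solute carriers showed the reverse, against 67 genes or 0.701%.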

How the results depend on the processing

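No paired analysis was possible because each deposited list covers all replicates of its condition, and for the same reason no replicate could be left out. Taking the 9471 widest peaks of each list moved the most values, here without shares over all genes at that setting. In WT cells the members in WT minus UV alone became 29, and in KO cells those in KO plus UV alone became 17. After UV, 19 were in KO plus UV alone and 35 in WT plus UV alone, and 10 were in both WT lists alone. Under it the shares without an overlap were 34.8% for WT minus UV in WT plus UV, 31.6% for KO plus UV in KO minus UV, 33% for KO minus UV in KO plus UV, 38.9% for KO plus UV in WT plus UV and 39.6% for WT plus UV in KO plus UV. For KO plus UV peaks in KO minus UV, an overlap of at least 50% of the peak gave 26.8% and bases covered gave 28.4%. Members in both UV lists alone numbered 2 with equal lists, 2 with carriers under other symbols and 3 with at least 200 bases of peak, and members in both KO lists alone numbered 1 with peaks of at least 150 bases. Merging peaks within 100 bases and leaving out copy-numbered transcripts moved 0 of 8 and 0 of 17 values. A value not counted as moved could still change. With at least 200 bases of peak, members with a peak in every list numbered 57, against 82, and those in WT plus UV 114, against 150. Leaving out KO plus UV was chosen after seeing the data. It gave 102 members in every remaining list, against 82. Those in both WT lists alone became 23, against 16, and those in the remaining KO list alone 5. Depth is unknown and limits every absent peak.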
